A study of Mus musculus with 8 samples.

Results

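The long-coding genes described here are the 255 genes, of 16674 in the RNA-seq tables, whose listed transcript holds a very long coding sequence. They were chosen by a coding length (listed end minus start) of at least 6000 bases, a start under 600, a distance from coding end to transcript end under 4000, and at least 1 RPKM (reads per kilobase, scaled to the library's total reads) in all 4 RNA-seq libraries. The coding length and positions alone were met by 399 genes, and the RNA-seq floor alone by 10227. The other 9972 genes at the same floor are called the remaining genes. The RNA-seq level therefore helped to choose the members, while the Ribo-seq level did not.

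The libraries came from inguinal white adipose tissue (iWAT) of male C57BL/6 mice, 9 weeks old, kept at 4 °C for 7 days. Y1CTL mice carried Ythdf1 with exon 4 between loxP sites on both alleles, and Y1cKO mice carried the same alleles with Adipoq-Cre, a Cre recombinase driven by the adiponectin promoter and active in adipocytes. YTHDF1 is a reader of m6A, a methyl mark on mRNA, and the study compared the genotypes for transcript level and translation. Each genotype had 2 RNA-seq and 2 Ribo-seq libraries of the whole tissue, so cells without Cre contributed to both.

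A coding sequence of this size is read by each ribosome for a long time, and the encoded proteins are among the giants of the cell. They include spectrins, plakins and other linkers of the cytoskeleton, laminins and fibronectin of the extracellular matrix, histone methyltransferases, HECT ubiquitin ligases, and multi-domain enzymes such as fatty acid synthase. Ribo-seq counts the short mRNA fragments that ribosomes protect from nuclease. With Ribo-seq given per coding length, as here, its ratio to RNA-seq is read as the density of ribosomes along the coding sequence. It does not give the number of ribosomes per transcript.

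The RNA-seq libraries held 3958284 and 4963613 reads in genes for Y1CTL and 12211351 and 16429015 for Y1cKO, and the Ribo-seq libraries held between 7364523 and 11862838. Ythdf1 itself stood at 8.01 and 11.5 RPKM in Y1CTL RNA-seq and at 7.17 and 7.98 in Y1cKO, and at 17.3 and 16.0 against 12.7 and 15.7 in Ribo-seq (adjusted p = 0.59 and 1.00, limma), so the Y1cKO values were the lower ones in each assay but did not pass the test. These are values of the whole gene and tissue, not of exon 4 or of adipocytes alone. Adipocyte markers were high in every library, with a median of 359.9 to 1459 RPKM. The 25 lymphocyte and lymph node markers found summed to 525.5 RPKM in Y1CTL RNA-seq replicate 2 and to 5.11 to 6.09 in the other 3 RNA-seq libraries, but to 1422 to 1874 in all 4 Ribo-seq libraries. The 23 skeletal muscle markers summed to 329.7 RPKM in Y1cKO RNA-seq replicate 1 and to 3.58 to 19.9 in the other 7 libraries. The 15 beige and brown adipocyte markers had a median of 11.04 RPKM in that RNA-seq library and of 47.4 to 70.2 in the other 3, and of 64.0 in Y1CTL Ribo-seq replicate 2 against 238.5 to 276.5 in the other 3 Ribo-seq libraries. Fewer cells of a type and less RNA per cell cannot be told apart in such tissue.

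The members had coding lengths from 6021 bases (Smchd1, a chromosome structure protein) to 26397 bases (Syne1, which ties the nucleus to the cytoskeleton), with a median of 7611 against 1371 in the remaining genes. These are proteins of 2007 to 8799 codons. Coding sequence made up a median of 89.4% of a member's transcript, against 52.8% for the remaining genes. The lengths before the coding sequence had medians of 158 and 171 bases. The rule limited coding length, start and the distance after the coding end for members but not for remaining genes. The coding share and the start of the members were therefore set in part by the choice. Of the members, 31 had a listed start of 0 and 12 ended at the stop codon, so their listed transcripts had no leader or no trailer.

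In all 4 RNA-seq libraries the median member lay above the median remaining gene, and in all 4 Ribo-seq libraries it lay far below. In RNA-seq, reads per transcript length, the members' median was 11.3 and 11.8 RPKM in Y1CTL and 13.9 and 13.3 in Y1cKO, against 7.88, 7.91, 9.36 and 8.71 for the remaining genes. In Ribo-seq, reads per coding length, it was 5.29 and 5.53 in Y1CTL and 4.73 and 5.47 in Y1cKO, against 15.7, 16.1, 15.8 and 16.4. The order of the 2 groups was thus opposite in the 2 assays, where the RNA-seq levels were set in part by the floor of the rule. On the scale log2(RPKM + 0.5), the difference between the 2 medians was 0.49 to 0.58 in RNA-seq and -1.64 to -1.46 in Ribo-seq.

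**Figure D1:**
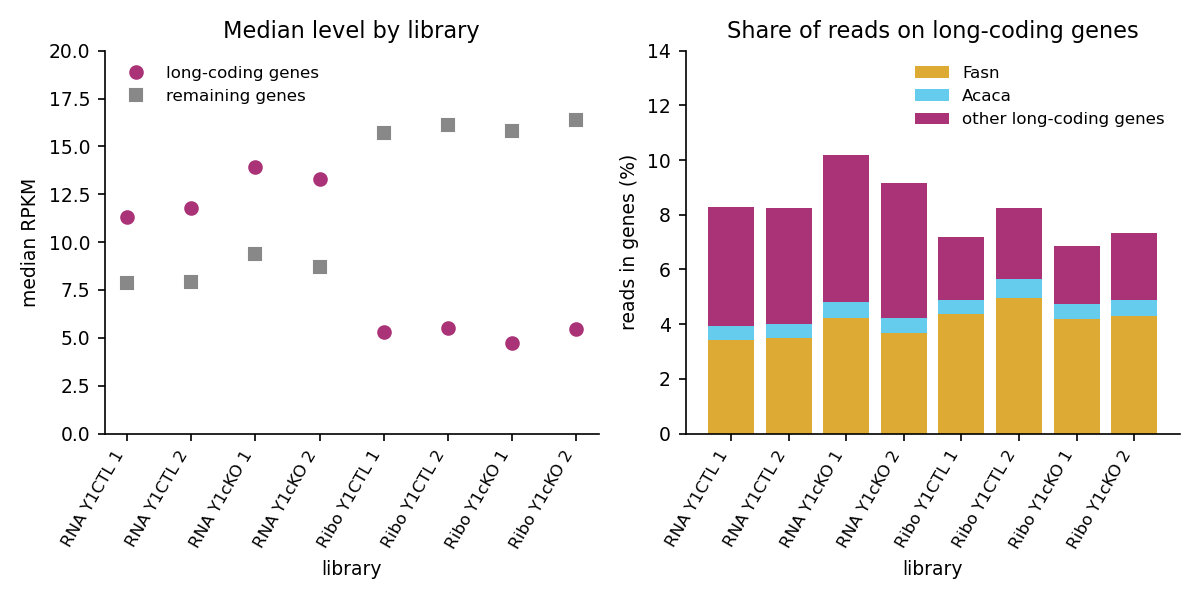
Left, the median RPKM (vertical axis) of the long-coding genes (circles) and the remaining genes (squares) in each of the 8 libraries (horizontal axis). Right, bars from 0 give the percent of reads in genes that fell on Fasn, on Acaca and on the other long-coding genes. The circles lie above the squares in the 4 RNA-seq libraries and below them in the 4 Ribo-seq libraries.

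The ratio level of a gene was its mean log2(RPKM + 0.5) in Ribo-seq minus that in RNA-seq, each library centred on the median gene at the floor. Over all 255 members its median was -1.84, against 0.09 for the remaining genes, which is 3.80-fold lower. Of the members, 243 (95.3%) lay below the median remaining gene, 131 (51.4%) lay in the lowest 10% of all genes at the floor, and 14 lay above the median gene. The levels ran from -4.61 (Dst) to 1.71 (Fn1), and 209 members were below -1. The spread among members (SD 1.02 on the log2 scale) was smaller than among the remaining genes (SD 1.41).

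Of the members, 246 reached a mean of 0.5 RPKM in both assays and were tested. In limma across all 8 libraries, 219 of them (89.0%) had a ratio level below the median gene at an adjusted p under 0.05, 3 had a level above it and 24 passed in neither direction. Among all 11792 genes tested the shares were 33.3% lower and 39.9% higher, and among the remaining genes at the floor 34.5% were lower. The median was -1.79 for the tested members and 0.12 for the tested remaining genes, a difference of -1.91 on the log2 scale. The other 9 members fell under the Ribo-seq minimum. Of these, 9930021J03Rik, Stard9, Zfp462, Cep164, Cacna1c, Kalrn, Speg and Dnhd1 had levels from -3.87 to -2.31, with Ribo-seq values between 0.0699 and 0.957 RPKM.

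The members lay at the end of a gradient that ran through all genes at the floor. The median ratio level was 1.35 for coding lengths under 600 bases (1311 genes), 0.48 from 600 to 1499 (4235 genes), -0.31 from 1500 to 2999 (3180 genes), -1.02 from 3000 to 4499 (915 genes) and -1.48 from 4500 up to 6000 (308 genes). Within the members it was -1.60 from 6000 to 7499 (118 genes), -1.94 from 7500 to 8999 (66 genes) and -2.23 from 9000 upward (71 genes). In the deposited units each of these steps in length came with a lower ratio. Against the remaining genes of 3000 up to 6000 bases alone, the members' tested median differed by -0.68 on the log2 scale.

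**Figure D2:**
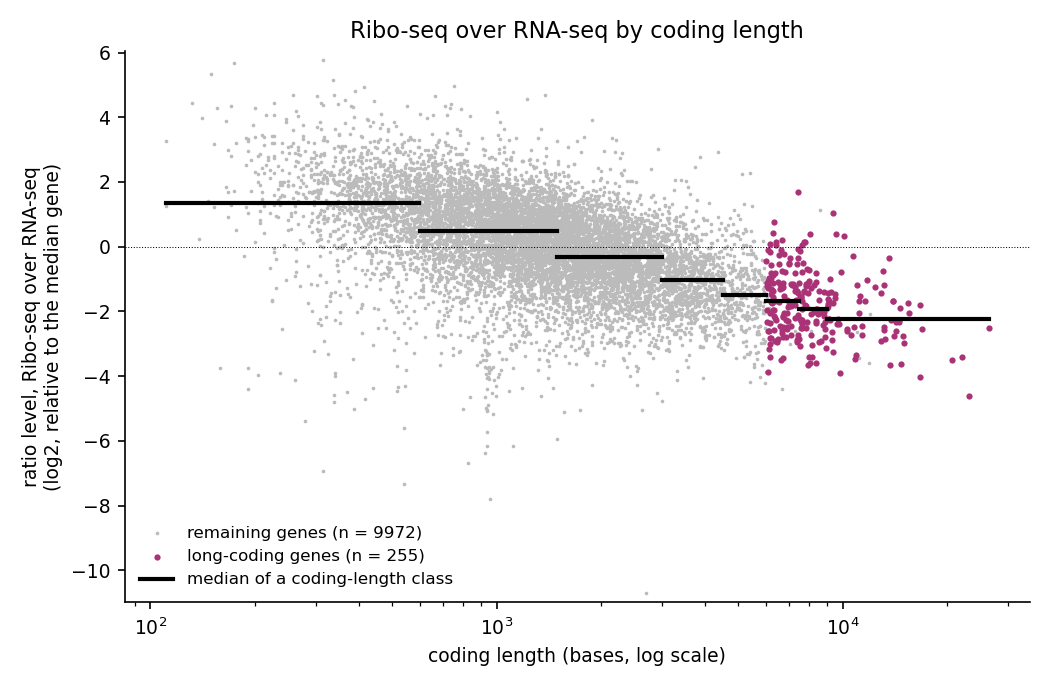
Ratio level (vertical axis, log2, 0 is the median gene) against coding length in bases (horizontal log axis) for each of the 10227 genes at the RNA-seq floor. Long-coding genes are dark points, remaining genes grey points and bars are medians of coding-length classes, which fall from 1.35 to -2.24.

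Spearman's rho between ratio level and coding length was -0.24 over the 255 members and -0.53 over the 9972 remaining genes. These are descriptions across genes, which share the libraries and are not replicates, and coding length is the divisor of the Ribo-seq RPKM. At the threshold itself, the 3 shortest members, Smchd1 (6021 bases), Myh10 (6039) and Lrrk1 (6042), had levels of -0.43, -1.13 and -1.22, and the 3 genes just under it, Etl4 (5991), Zfc3h1 (5976) and Tcf20 (5961), had -3.88, -2.92 and -4.21. The deposited unit mattered to the size: with Ribo-seq reads counted per transcript length, as in RNA-seq, the difference between members and remaining genes was -1.11 instead of -1.91, and the class medians ran from 0.79 under 600 bases to -1.32 for members of at least 9000. In that unit the step into the members was flat, with a median of -0.75 for members of 6000 to 7499 bases against -0.84 for all genes of 4500 up to 6000 and -0.74 for those of them that met the position limits.

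Dst, which encodes dystonin, a plakin that links cytoskeletal filaments, had the lowest ratio level. Its RNA-seq level was 45.9 and 30.3 RPKM in Y1CTL and 57.0 and 58.8 in Y1cKO, and its Ribo-seq level was 2.44 and 3.72 against 2.83 and 2.74. Every Ribo-seq value lay far under every RNA-seq value. The ratio level was -4.61 ± 0.17 (SE, n = 8 libraries, adjusted p = 1.9e-06, limma), 24.5-fold below the median gene.

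Kmt2d, a histone H3 lysine 4 methyltransferase, followed with 21.4 and 30.8 RPKM in Y1CTL and 30.0 and 27.4 in Y1cKO RNA-seq, and 2.27 and 2.56 against 2.70 and 2.49 in Ribo-seq. Its ratio level was -4.03 ± 0.14 (SE). Srcap, an ATPase of a chromatin remodeling complex that places a histone variant, had 31.6 and 35.1 against 35.1 and 35.3 RPKM in RNA-seq and 3.75 and 3.79 against 3.23 and 3.64 in Ribo-seq, a level of -3.91 ± 0.10. The genotypes overlapped in both assays for Kmt2d and in RNA-seq for Srcap, whose Y1cKO Ribo-seq values lay just under those of Y1CTL. The rest of the 10 lowest were 9930021J03Rik, Stard9 (a kinesin), Bahcc1, Kmt2c (a second methyltransferase of histone H3), Pdzd2, Hivep1 and Syne2, at -3.87 to -3.51.

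At the other end stood Fn1, fibronectin, a secreted matrix glycoprotein. Its Ribo-seq level was 109.2 and 189.5 RPKM in Y1CTL and 149.4 and 191.0 in Y1cKO, and its RNA-seq level was 17.6 and 24.0 against 64.3 and 18.3. The RNA-seq value of 64.3 belonged to the library with the muscle markers, and all Ribo-seq values exceeded all RNA-seq values. The ratio level was 1.71 ± 0.37 (SE, adjusted p = 0.0040, limma).

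Lama2, the laminin alpha 2 chain of basement membranes, had 7.46 and 5.20 RPKM in Y1CTL and 16.4 and 10.8 in Y1cKO RNA-seq and 24.9 and 43.8 against 32.4 and 39.6 in Ribo-seq, a level of 1.03 ± 0.22. Tnc, the matrix protein tenascin C, had 4.48 and 2.81 against 4.04 and 3.81 RPKM in RNA-seq and 17.3 and 10.5 against 10.02 and 11.8 in Ribo-seq, a level of 0.75 ± 0.21 (adjusted p = 0.012, limma). These 3 matrix genes were the members called above the median gene. With the Y1CTL libraries alone the Tnc level was 0.88 and did not pass.

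**Figure D3:**
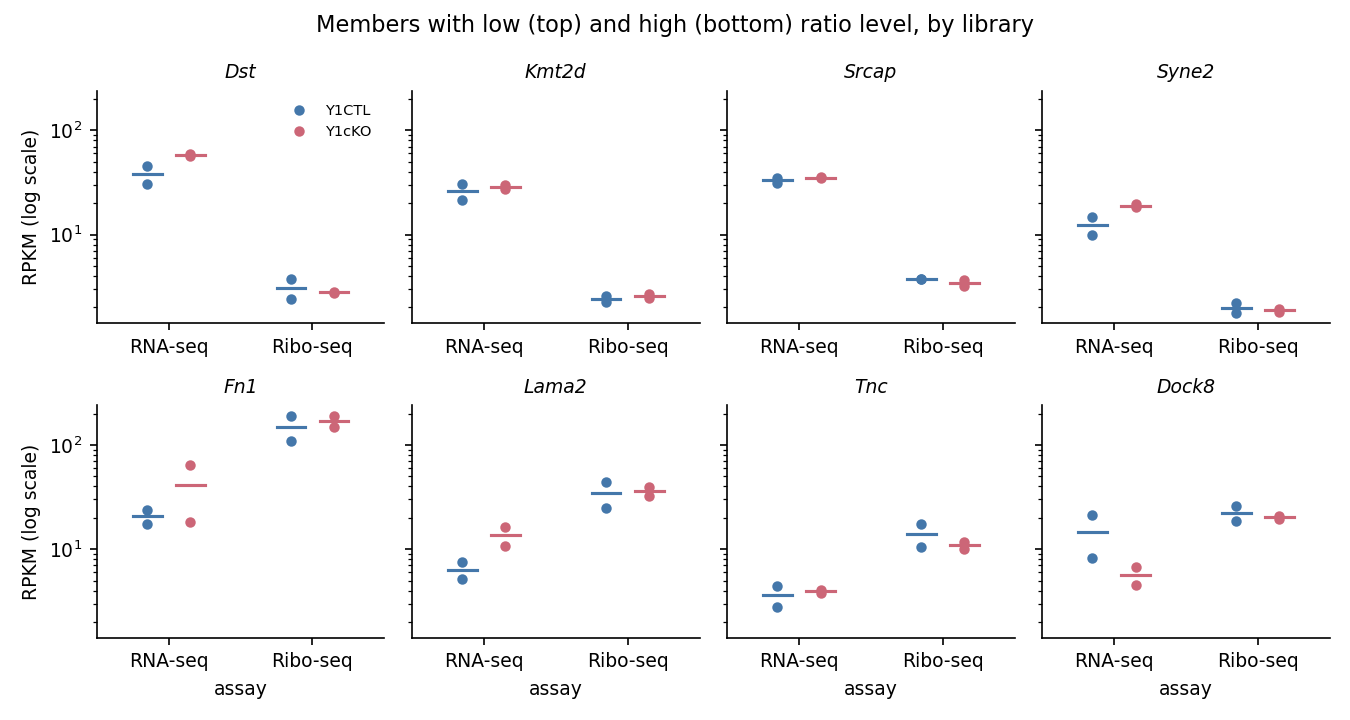
RPKM (vertical log axis) in RNA-seq and Ribo-seq (horizontal axis) of 4 members with a low ratio level (top: Dst, Kmt2d, Srcap, Syne2) and 4 with a high one (bottom: Fn1, Lama2, Tnc, Dock8). Points are libraries, bars the mean of the 2 libraries of a genotype. Ribo-seq values lie below RNA-seq values in the top row, and above them for Fn1, Lama2 and Tnc.

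The next highest were Dock8 and Wdfy4, both chiefly known from immune cells, where Dock8 activates the GTPase Cdc42 and Wdfy4 serves antigen cross-presentation. Dock8 stood at 8.29 and 21.1 RPKM in Y1CTL and 4.56 and 6.71 in Y1cKO RNA-seq, and at 26.0 and 18.8 against 21.0 and 19.7 in Ribo-seq. Wdfy4 stood at 1.92 and 12.2 against 1.84 and 1.29 RPKM in RNA-seq and at 7.41 and 6.85 against 7.08 and 8.38 in Ribo-seq. The high RNA-seq value of each was that of Y1CTL replicate 2, the RNA-seq library with the lymphocyte markers. The ratio levels were 0.43 ± 0.29 and 0.41 ± 0.46 (adjusted p = 0.22 and 0.45, limma), and without that library they were 0.75 and 1.00 and passed. The 14 macrophage markers found summed to 118.3 to 215.9 RPKM in RNA-seq and to 3927 to 4413 in Ribo-seq. The part of lymphoid tissue and macrophages in these levels was not tested. The rest of the 10 highest were Col6a3 (0.39), Vcan (0.32), Cad (0.21), Igsf10 (0.15) and Snrnp200 (0.14), none of which passed the test.

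Upstream sequence is shown for 4 of these extremes, the 2 lowest and the 2 highest members that have a single promoter entry. They were not matched for coding length, and the ratio level of Dock8 did not pass the test. RefSeq promoters (GRCm38.p6, another build than the mm8 of the files) matched 203 of the 255 members by symbol. Each line gives the 150 bases before the transcription start, 5′ to 3′ on the gene's strand, with CG dinucleotides in capitals.
Kmt2d (chr15:98871206-98871355, minus strand): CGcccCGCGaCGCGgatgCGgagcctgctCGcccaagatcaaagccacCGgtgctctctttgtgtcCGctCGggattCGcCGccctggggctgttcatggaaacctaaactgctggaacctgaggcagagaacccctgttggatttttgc
Srcap (chr7:127511833-127511982, plus strand): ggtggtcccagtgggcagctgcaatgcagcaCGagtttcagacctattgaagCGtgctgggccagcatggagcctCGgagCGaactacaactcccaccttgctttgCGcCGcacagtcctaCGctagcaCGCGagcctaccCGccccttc
Lama2 (chr10:27616943-27617092, minus strand): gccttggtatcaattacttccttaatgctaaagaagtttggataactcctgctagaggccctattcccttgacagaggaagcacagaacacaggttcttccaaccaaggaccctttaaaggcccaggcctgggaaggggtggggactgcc
Dock8 (chr19:24999379-24999528, plus strand): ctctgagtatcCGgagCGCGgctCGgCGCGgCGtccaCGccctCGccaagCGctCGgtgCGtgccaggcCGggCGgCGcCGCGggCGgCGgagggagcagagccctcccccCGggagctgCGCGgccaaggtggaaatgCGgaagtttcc

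The count of CG was 12 for Kmt2d, 10 for Srcap, 0 for Lama2 and 23 for Dock8, too few genes to read against the ratio. Of all 32851 promoters in the table, 85.7% held at least 1 CG in this window, with a median of 4. Over the 250 bases upstream, G and C made up a median of 63.2% in the 203 matched members and 60% in 7965 matched remaining genes. The 63 members with the lowest ratio levels (47 matched) had a median of 65.6% and the 64 with the highest (55 matched) 58.8%. Spearman's rho of ratio level with this G and C content was -0.21 over the matched members and -0.14 over the matched remaining genes, as descriptions across genes. With the count of CG over the same 250 bases it was -0.21 and -0.10. The median count was 19 in the members with the lowest levels and 14 in those with the highest.

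Grouped by function, the members of the chromatin and transcription list had the lowest ratio levels and those of the extracellular matrix list the highest. The 42 chromatin members had a median of -2.80 (from -4.03 to -1.16), and 34 of them lay under the median of all members. All 41 that were tested were called lower, read against 33.3% of all genes tested and 89.0% of all tested members. Hcfc1, a cofactor of transcription and chromatin complexes, had 19.8 and 20.1 RPKM in Y1CTL and 22.4 and 21.3 in Y1cKO RNA-seq and 14.1 and 14.8 against 13.5 and 13.8 in Ribo-seq, a level of -1.38. Med12 and Phf3 (at -1.16 and -1.26) were also among the members of the list with most footprints, while Arid1a, a subunit of the BAF remodeling complex, had -2.27. The 42 other genes of the same list at the floor had a median of -1.84. In some lists such other genes were as low as the members. Their median was -1.85 against -1.55 for kinases, GTPase regulators and signaling scaffolds, and -1.70 against -1.66 for receptors. For RNA processing it was -1.09 against -1.17. It lay further above the members' median for extracellular matrix (0.37), cytoskeleton (-1.002), ubiquitin (-0.65), membrane traffic (-1.015) and metabolic (-0.30) genes.

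The 11 extracellular matrix members had a median of -0.27 (from -1.91 for Vwf, von Willebrand factor, to 1.71 for Fn1). Of these, 5 were called lower (33.3% of all genes tested and 89.0% of all tested members were). Another 3 were called higher (39.9% and 1.22%), and 3 passed in neither direction. The median coding length of the 11 matrix members, 9354 bases, was above that of all members. Col6a3, a collagen VI chain, had 45.0 and 24.2 RPKM in Y1CTL and 77.5 and 45.4 in Y1cKO RNA-seq and 90.9 and 147.7 against 70.9 and 120.6 in Ribo-seq, and Hspg2, the basement membrane proteoglycan perlecan, had a level of -1.17. The list's median was 0.15 in Y1CTL and -0.70 in Y1cKO. Without Y1CTL RNA-seq replicate 2 it was -0.65, and without Y1cKO RNA-seq replicate 1 it was -0.20. No fixed list held fibroblast markers, and the part of cell makeup in these levels was not tested.

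**Figure D4:**
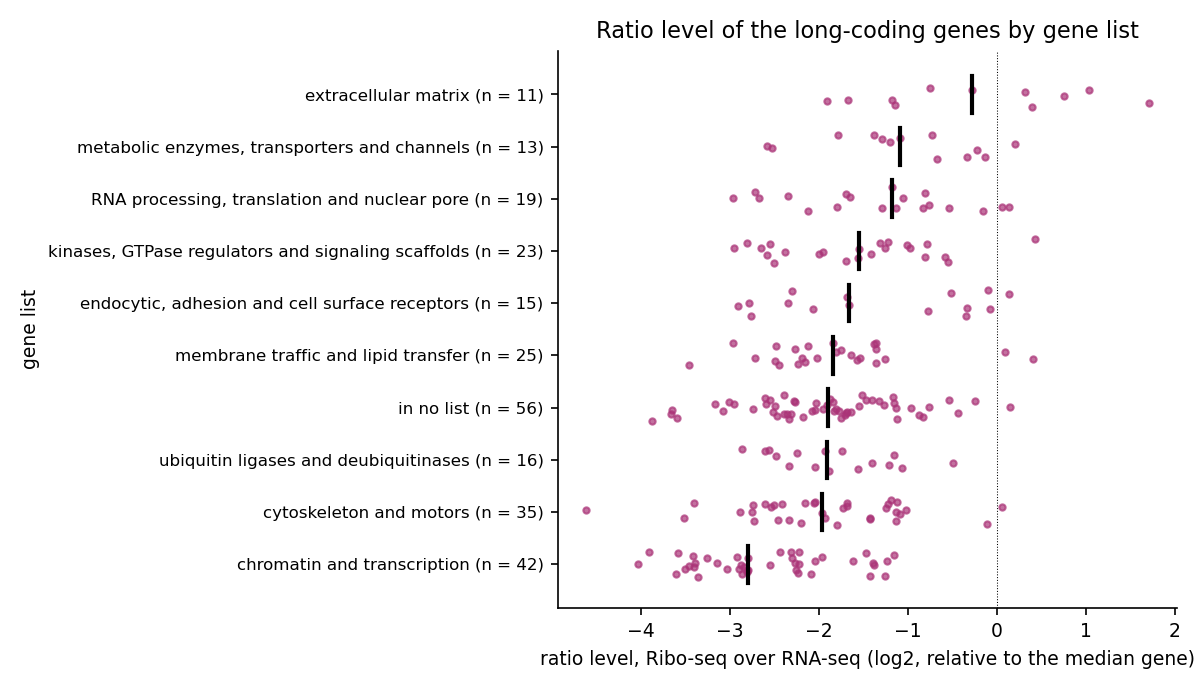
Ratio level (horizontal axis, log2, 0 is the median gene) of the 255 long-coding genes in the 9 gene lists and of those in no list (vertical axis, ordered by median). Points are genes, spread vertically for display, and bars are medians, from -2.80 for chromatin and transcription to -0.27 for extracellular matrix.

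Metabolic enzymes, transporters and channels (13 members) had a median of -1.09. Of 12 tested, 7 were called lower, read against 33.3% of all genes tested and 89.0% of all tested members. Fasn, fatty acid synthase, was the most abundant member in every library, with 3389 and 3480 RPKM in Y1CTL and 4195 and 3654 in Y1cKO RNA-seq and 5834 and 6603 against 5597 and 5740 in Ribo-seq. Its ratio level of -0.13 ± 0.22 did not pass the test against the median gene (adjusted p = 0.62, limma). Acaca, which makes malonyl-CoA for fatty acid synthesis, was likewise at -0.33 ± 0.15, whereas Acacb, its mitochondrial counterpart, was lower at -1.38 ± 0.19. Acacb had 225.9 and 250.8 RPKM in Y1CTL and 225.5 and 190.9 in Y1cKO RNA-seq, and 195.5 and 109.4 against 146.7 and 166.1 in Ribo-seq. Abca1, which exports cholesterol, was at -0.22.

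RNA processing, translation and nuclear pore genes (19 members) had a median of -1.17. Of the 19, 16 were called lower, against 33.3% of all genes tested and 89.0% of all tested members. The spliceosome factors Snrnp200 and Prpf8 stood at 0.14 and -0.54, while Srrm2, a splicing protein of nuclear speckles, stood at -2.72 and Tpr of the nuclear pore at -0.83. Srrm2 had 90.9 and 99.1 RPKM in Y1CTL and 109.5 and 102.0 in Y1cKO RNA-seq but 27.8 and 29.8 against 22.4 and 26.9 in Ribo-seq. The ratio levels of this list ran from -2.96 to 0.14.

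The cytoskeleton and motors list (35 members) had a median of -1.97. It had 33 members called lower, against the same 33.3% of all genes tested and 89.0% of all tested members. It held the 5 longest members, Syne1 (26397 bases), Dst (23151), Macf1 (22065), Syne2 (20622) and Ahnak (16968), at -2.50, -4.61, -3.40, -3.51 and -2.53. Ahnak, a scaffold under the plasma membrane, had 129.5 and 104.4 RPKM in Y1CTL and 211.2 and 171.1 in Y1cKO RNA-seq and 30.6 and 61.8 against 44.9 and 48.5 in Ribo-seq. Talin 1 (Tln1), which couples integrins to actin, was at 0.06, and the spectrins Sptan1 and Sptbn1 were at -1.12 and -2.74. These 2 spectrins pair in the same protein complex. Their RNA-seq levels differed (55.9 to 73.4 against 135.4 to 211.7 RPKM) while their Ribo-seq levels overlapped (44.5 to 60.3 against 38.1 to 56.8). Other partners in a complex were not compared, so no rule is drawn from this pair.

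The endocytic, adhesion and cell surface receptors (15 members) had a median of -1.66 with 10 called lower. This count and the next 3 are read against 33.3% of all genes tested and 89.0% of all tested members. Lrp1, an endocytic receptor for lipoproteins and proteases, stood at -0.35, Sorl1 at -0.10, Igf2r at -0.08 and Cspg4 at -0.51. In all lists the genes named were chiefly those with most footprints, a value that enters the ratio, so they do not typify their lists. The ubiquitin ligases and deubiquitinases (16 members) had a median of -1.91 and all 16 were called lower, among them Usp9x at -0.49, Trip12 at -1.06 and Ubr4 at -2.04. Kinases, GTPase regulators and signaling scaffolds (23 members) had a median of -1.55 with 20 of 22 tested called lower, with Mtor at -0.78, Pi4ka at -0.97 and Dock11 at -0.58. Membrane traffic and lipid transfer genes (25 members) had a median of -1.84 with 23 called lower, among them Vps13c (-1.53), Dnajc13 (-1.25), Sec16a (-1.80) and 2610507B11Rik (-3.45). The 56 members in no list had a median of -1.89.

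Reads on the members made up 8.29% and 8.26% of Y1CTL and 10.2% and 9.17% of Y1cKO RNA-seq reads, and 7.20% and 8.26% of Y1CTL and 6.84% and 7.34% of Y1cKO Ribo-seq reads. Much of the Ribo-seq share was Fasn alone, with 4.38% and 4.96% in Y1CTL and 4.21% and 4.31% in Y1cKO. Without Fasn and Acaca the other members took 4.25% to 5.35% of RNA-seq reads and 2.12% to 2.60% of Ribo-seq reads. With 2 libraries a genotype an exact permutation test cannot give a p under 0.33, so these shares are given with no test.

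Between the genotypes, no member passed in Ribo-seq, RNA-seq or translational efficiency (TE, the ratio of Ribo-seq to RNA-seq) in limma, and neither did any other gene. The voom fit on the recovered reads also called 0 members in each. In Ribo-seq the members were shifted slightly downward in Y1cKO. Their median log2 change was -0.10, against 0.01 for the remaining genes, and 181 of 246 tested members (73.6%) were below 0, against 48.4% of the tested remaining genes. None had an adjusted p under 0.05 (0% of 12602 genes tested, limma). At an unadjusted p under 0.05 there were 2 members, Prune2 and Sorl1 (0.81% of tested members), among 347 genes (2.75% of all tested). Both Y1cKO values lay under both Y1CTL values for 72 of the 246 tested members (29.3%), read against 14.1% of all genes tested, and above them for 12 (4.88%), against 15.4%. Over all 255 members the counts were 73 and 12.

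This shift was not even over the libraries. The members' median relative to the remaining genes was -1.49 and -1.46 in Y1CTL Ribo-seq and -1.64 and -1.5 in Y1cKO, so that Y1cKO replicate 1 was lowest and Y1cKO replicate 2 lay beside Y1CTL replicate 1. The difference between members and remaining genes in the Ribo-seq change was -0.10 with all libraries and -0.06 without Y1cKO replicate 1. The change also ran along coding length, with medians of 0.10 under 600 bases, -0.02 from 1500 to 2999, -0.07 from 4500 up to 6000 and -0.15 for the members of at least 9000. The 5 members with the lowest change were Chd6, Prune2, Helz2, Dysf and Akap9, at -0.60 to -0.44, and the 5 with the highest were Itpr2, Abca7, Pdzd2, Fn1 and Ccdc88c, at 0.29 to 0.22. Single libraries set several of these values. Without Y1CTL replicate 1 the change was -0.05 for Dysf, -0.26 for Helz2, 0.06 for Pdzd2 and -0.17 for Fn1, and without Y1CTL replicate 2 it was 0.0076 for Abca7, -0.10 for Itpr2, -0.37 for Chd6, -0.36 for Prune2 and -0.27 for Akap9. Without Y1cKO replicate 1 the change was much the same as this, at -0.38 for Chd6, -0.34 for Prune2 and -0.27 for Akap9. The beige and brown adipocyte markers were low in Y1CTL Ribo-seq replicate 2, and their part in the genotype changes was not tested.

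Chd6, a chromatin remodeler, had 2.05 and 3.02 RPKM in Y1CTL and 1.19 and 1.81 in Y1cKO Ribo-seq. Prune2 had 10.5 and 13.6 against 6.93 and 9.30 RPKM, and Sorl1, a sorting receptor that also acts in adipocytes, had 55.2 and 58.2 against 39.4 and 46.9. The groups did not overlap in these 3 genes, yet the adjusted p was 1.00 for each (limma). Itpr2, a calcium channel of the endoplasmic reticulum, had 12.3 and 6.97 RPKM in Y1CTL and 10.5 and 12.6 in Y1cKO, so that its groups overlapped.

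In RNA-seq, which chose the members through its floor, the median change was 0.20 for the members, 0.18 for the remaining genes and 0.17 over all genes tested, given as a description. When libraries were scaled to the same median the members' value was 0.02, against -0.01 for all genes tested. No gene passed the adjusted threshold (0% of 12435 tested). At an unadjusted p under 0.05 there were 33 members (12.9%) among 1468 genes (11.8% of all tested). Y1cKO values lay above both Y1CTL values for 123 of 255 members (48.2%; 36.9% of all genes tested) and under them for 21 (8.24%; 10.7% of all). The highest changes were those of Lama2, Svep1, Tln2, Tnxb and Lrp1, at 1.03 to 0.93, which include 3 matrix proteins and the receptor Lrp1. Lrp1 had 73.9 and 45.2 RPKM in Y1CTL and 122.0 and 100.8 in Y1cKO RNA-seq, with no overlap, but 89.0 and 135.5 against 109.9 and 116.0 in Ribo-seq. Without Y1CTL RNA-seq replicate 2 the RNA-seq change was 0.58 for Lrp1 and 0.26 for Svep1, and without Y1cKO replicate 1, the library with the muscle markers and the low beige markers, it was 0.60 for Tnxb.

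The lowest RNA-seq changes were those of Wdfy4, Mki67, Dock8, Dock10 and Itpr2, at -1.44 to -0.77. Dock10, which like Dock8 is known from lymphocytes, had 4.74 and 21.5 RPKM in Y1CTL and 5.37 and 5.98 in Y1cKO, and only Y1CTL replicate 2 stood out. Without that library its change was 0.24, and the change was -0.24 for Wdfy4, -0.54 for Dock8 and -0.32 for Itpr2. Mki67, a marker of dividing cells, had 11.3 and 6.13 against 3.62 and 2.92 RPKM, and without Y1CTL replicate 1 its change was -0.82.

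The TE change had a median of -0.29 in the 246 tested members and -0.18 in the tested remaining genes, and after scaling to the same median -0.12 and -0.0073. The difference between these groups was -0.11, and it was -0.06 without Y1cKO Ribo-seq replicate 1 and -0.18 without Y1cKO Ribo-seq replicate 2. Of the members 211 (85.8%) were below 0, against 67.3% of the tested remaining genes. No gene passed the adjusted threshold (0% of 11792 tested), and at an unadjusted p under 0.05 there were 18 members lower (7.32%, against 7.12% of all genes tested) and 0 higher (against 1.53%). The share of members lower at that level was thus close to that of all genes, while no member was higher. In the lists, the median TE change was -0.67 for extracellular matrix (11 of 11 members below 0), -0.46 for the receptors (15 of 15) and -0.43 for the cytoskeleton (33 of 35), and -0.17 for chromatin (35 of 41), read against -0.17 over all genes tested. The RNA-seq changes of the same lists were 0.56, 0.44, 0.34 and 0.12, and their Ribo-seq changes were -0.09, -0.02, -0.12 and -0.12, so the lists differed more in RNA-seq than in Ribo-seq. The part of the muscle, lymphocyte and beige adipocyte signal of single RNA-seq libraries in these medians was not tested.

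**Figure D5:**
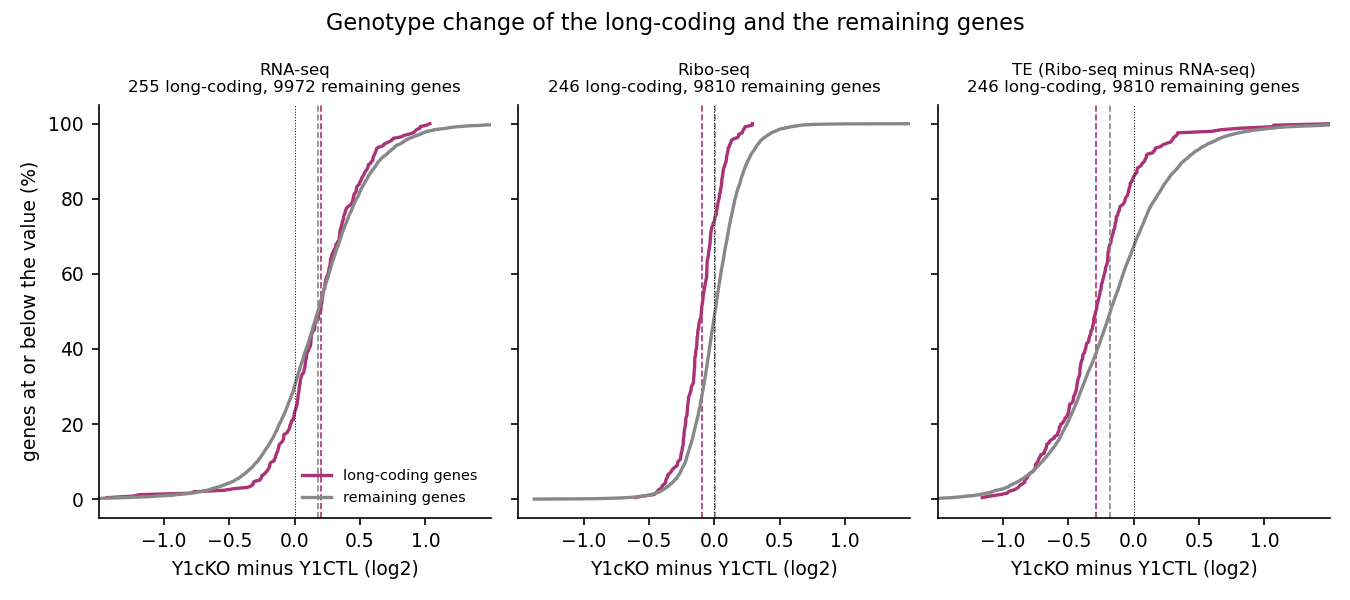
Cumulative percent of genes (vertical axis) at or below a given log2 change of Y1cKO against Y1CTL (horizontal axis, from -1.5 to 1.5) in RNA-seq, Ribo-seq and TE, for the long-coding and the remaining genes. Dashed lines are medians, which are 0.20 and 0.18 in RNA-seq, -0.10 and 0.01 in Ribo-seq and -0.29 and -0.18 in TE.

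The members with the lowest TE change were Col6a3, Nav3, Svep1, Tacc2 and Tln2, at -1.16 to -0.96, and the highest were those of Wdfy4, Dock8, Itpr2, Mki67 and Dock10, at 1.54 to 0.66. Without Y1CTL RNA-seq replicate 2 the TE change was 0.34 for Wdfy4, 0.42 for Dock8, 0.62 for Itpr2, -0.37 for Dock10, -0.27 for Svep1 and -0.72 for Col6a3. It was 0.27 for Mki67 without Y1cKO Ribo-seq replicate 2 and -0.54 for Nav3 without Y1CTL Ribo-seq replicate 2. For Itpr2 it was also 0.67 without Y1CTL Ribo-seq replicate 2 and 0.71 without Y1cKO RNA-seq replicate 1. For Col6a3 it was also -0.78 without Y1cKO RNA-seq replicate 1 and -0.78 without Y1cKO Ribo-seq replicate 1. Tln2, a second talin, had 6.76 and 5.66 RPKM in Y1CTL and 11.96 and 13.1 in Y1cKO RNA-seq and 3.29 and 4.47 against 4.20 and 3.52 in Ribo-seq, a TE change of -0.96 ± 0.30 (SE, adjusted p = 0.56, limma). Svep1, a secreted matrix protein, had 13.4 and 4.42 against 18.5 and 14.1 RPKM in RNA-seq and 16.0 and 17.5 against 14.7 and 18.8 in Ribo-seq. When Y1CTL RNA-seq replicate 1 was left out, so that the library with the lymphocyte markers alone stood for Y1CTL RNA-seq, 4 members passed in TE (Wdfy4, Dock8 and Dock10 higher and Svep1 lower), where 4.91% of all genes tested passed. The same omission gave 8 members in RNA-seq, where 5.33% of all genes passed.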

How the data were processed

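RNA-seq (poly(A) RNA) and Ribo-seq (RNase I footprints) had 4 libraries each. By the sources used here, 20% of each lysate went to RNA-seq and 80% to Ribo-seq. Marker sums nonetheless differed between the assays, as for the lymphocyte markers (5.11 to 525.5 against 1422 to 1874 RPKM). The macrophage markers summed to 118.3 to 215.9 RPKM in RNA-seq and to 3927 to 4413 in Ribo-seq. The muscle markers of Y1cKO RNA-seq replicate 1 went the other way. Whether both assays saw the same tissue makeup was not tested. The deposited values are RPKM that the authors computed, per transcript length in RNA-seq and per coding length in Ribo-seq. The submitters' processing notes name HISAT2 2.2.1, DESeq2 and the mm8 build; counter, annotation release and strand setting were not given in the sources used here. All values were whole reads to within 0.01 read, so depth could be recovered. Genes not listed in a Ribo-seq table were taken as 0, and 24 date-like symbols were restored from gene names. Column names inside the 2 Y1cKO RNA-seq tables swap the replicate numbers of the labels, and the labels were followed.

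Values were tested as log2(RPKM + 0.5) with limma 3.58.1 (R 4.3.3, trend), over all genes that averaged 0.5 RPKM or more in each assay tested, with Benjamini-Hochberg adjustment. The script was tested on simulated data. Alternatives covered the pseudocount, the filter, voom on recovered reads, library weights, scaling, each library left out, a replicate block and the limits of the rule. Ratio level and TE used all 8 libraries, the genotype changes 4. Members and lists were chosen with earlier results of these data known. Named genes were the 10 highest and 10 lowest in ratio, the 5 largest rises and falls in each genotype change, up to 4 per list with most footprints, the 5 longest, and the 3 on each side of the length threshold; Prune2 and Sorl1 (unadjusted p), Vwf (lowest matrix member) and 8 untested members were named after their values were seen. A few genes that these rules name are not reported here. The labels do not say that replicates were separate animals, so p-values measure only the spread between libraries. Replicates differed by more than counting noise (chi-square per degree of freedom 12.3 to 36.2). Members had at least 32 reads in each RNA-seq and 7 in each Ribo-seq library.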

Additional observations from a re-analysis of the deposited data

How the results depend on the processing

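The median ratio level of the members minus that of the remaining genes was -1.91. It was -2.02 with a pseudocount of 0.1 RPKM, -1.79 with 1 RPKM, -2.06 with voom on reads, -1.99 with an RNA-seq floor of 2 RPKM, -2.31 and -1.78 with a coding length of at least 9000 and 4500, -1.11 with Ribo-seq per transcript length and -0.68 against genes of 3000 up to 6000 bases, and -1.94 to -1.88 with 1 library left out. The share of tested members called lower was 74.3% to 92.5% over all alternatives. The Ribo-seq, RNA-seq and TE differences were -0.10, 0.02 and -0.11, and the RNA-seq one was 0.051 with a coding length of at least 4500. With 1 library left out they were -0.15 to -0.06, -0.00771 to 0.047 and -0.18 to -0.06. The count of members called stayed at 0 in Ribo-seq, and ran from 0 to 8 in RNA-seq and 0 to 4 in TE. Counts above 0 came only when a Y1CTL RNA-seq library was left out, so that a single library stood for that group. Without Y1CTL RNA-seq replicate 2 the RNA-seq change of Mki67 was -1.66. The mean share of reads on members, 7.41% in Ribo-seq and 8.97% in RNA-seq, was 3.46% and 6.75% without the 50 genes with most reads.

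The replicate block left the ratio difference at -1.91 (88.6% of tested members called lower) and the TE difference at -0.11, with 0 members called. RNA-seq and Ribo-seq libraries of the same number did not deviate together (r of -0.14 in Y1CTL and -0.24 in Y1cKO), so the numbers were not taken to pair them. With the Ribo-seq numbers crossed in both genotypes, chosen after seeing the data, 89.4% were called lower in ratio and 0 in TE. The column names pair the Y1cKO libraries the other way, and a block by those numbers, also added then, gave 89.4% and 0. The muscle markers of Y1cKO RNA-seq replicate 1 (329.7 RPKM) stood at 11.2 to 19.9 RPKM in all 4 Ribo-seq libraries, so neither numbering ties that library to a Ribo-seq library with them.

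Single genes whose direction turned were Dock8 (ratio -0.19), Wdfy4 (-0.45) in Y1CTL alone, Wdfy4 with 1 library left out (-0.19 to 1.00), Col6a3 (-0.10) and Snrnp200 (-0.0022) in Y1cKO alone, Igsf10 with 1 library left out (-0.059 to 0.35), and in the genotype changes with 1 library left out, Itpr2 (-0.10 to 0.68) and Fn1 (-0.17 to 0.63) in Ribo-seq and Dock10 (-1.83 to 0.24 in RNA-seq, -0.37 to 1.70 in TE, turning without Y1CTL RNA-seq replicate 2). The cause was not tested. A member with 7 reads in a library has a large counting error, which the tests see only through the spread of 2 libraries.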
